A study of Homo sapiens with 20 samples.

Results

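DOHH2 and U2932, human cell lines of diffuse large B cell lymphoma, were compared after 18 h with the compound labelled TK, and each line difference was then set beside the one measured with the vehicle DMSO at 8 h. The libraries were chosen by their titles: 3 of DOHH2 with TK at 18 h against 3 of U2932 with TK at 18 h, which is 6 of the 20 libraries of the series, and 3 of DOHH2 with DMSO at 8 h against 3 of U2932 with DMSO at 8 h. The other libraries were 3 of DOHH2 and 2 of U2932 with TK at 8 h, and 2 of DOHH2 and 1 of U2932 with DMSO at 18 h. Both are established lines, the labels name no engineered allele, and they do not say that replicates came from separate cultures, so p-values measure the spread between libraries only. The comparisons with TK and with DMSO share no library, but compound and time both differ between them and cannot be told apart. Unless another time is named, "with TK" stands for 18 h and "with DMSO" for 8 h.

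The tumour suppressor p53 is a transcription factor that, when stabilised by stress, raises genes for cell cycle arrest, DNA repair and cell death, among them MDM2, whose product in turn removes p53. Cells that stop dividing lose the transcripts of mitotic genes, which are made late in the cell cycle, and some of them accumulate the polyadenylated histone transcripts that do not depend on DNA synthesis. Lymphoma lines differ in their mutations of this pathway, in their stage of B cell differentiation and in their tonic interferon and NF-kB signalling.

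The libraries held 30363255 to 52275430 counts in genes, and levels below are CPM, the counts of a gene per 1e6 counts of the TMM-scaled library. All 7 markers of B cells were at 1 CPM or more on average in each of the 4 groups, while the summed markers of myeloid and erythroid cells stayed at 2.44 CPM or less and those of T cells at 7.42 CPM or less in every library of those groups. Of the epithelial markers, EPCAM averaged 24.5 CPM in U2932 with TK, and of the fibroblast markers COL1A1 averaged 8.34 CPM in DOHH2 with TK. DOHH2 is usually described as germinal centre-like and U2932 as activated B cell-like. The germinal centre repressor BCL6 averaged 0.0359 ± 0.0376 CPM in DOHH2 with TK and 359.6 ± 26 CPM in U2932 with TK (SD, n = 3 each), so this gene was near 0 in DOHH2. Of 15 germinal centre markers tested, 3 were higher and 8 lower in DOHH2 with TK, or 5 and 8 without its replicate 1. Of 14 activated B cell markers, 8 were higher and 5 lower. Over all genes, 34.2% were higher and 34.9% lower. Members of both lists went both ways, and the type of the lines was not tested. One library stood apart: in replicate 1 of DOHH2 with TK, reads that aligned to several places made up 56.6% of all counts, while the highest share among the other 19 libraries was 34.3%, and where a count over a gene list moved by over 1.5 times, or a gene described lost its call, without it, that is said beside the result.

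With TK, 11397 of 16478 genes tested (69.2%) differed between the lines, 5641 of them higher in DOHH2 (34.2%) and 5756 lower (34.9%), at an adjusted p under 0.05 in edgeR's quasi-likelihood test. With DMSO, 11177 genes differed (67.8%), 5432 higher (33.0%) and 5745 lower (34.9%). Of the genes that differed, 9089 did so in both comparisons, which is 79.7% of those with TK and 81.3% of those with DMSO. They had the same sign in 8923 genes and opposite signs in 166. Most of what separated the lines with TK was therefore measured with DMSO too.

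Whether a line difference itself changed was tested as the difference with TK minus the difference with DMSO, both on the log2 scale, a value called the shift below. It passed for 2044 genes (12.4%), with a positive shift in 939 (5.70%) and a negative one in 1105 (6.71%). The shares over all genes given here and above are the background for the counts over gene lists below. Of the genes that differed with TK and passed this test, 166 were reversed with DMSO (1.01% of the genes tested), 625 did not pass with DMSO and are called absent there (3.79%), 358 had the same sign but a smaller size with DMSO (2.17%), and 365 had the same sign and a larger size with DMSO (2.22%). Another 530 genes with a shift did not differ between the lines with TK. For 8200 genes that differed in both comparisons and 1683 that differed with TK the shift was not called, so their state with DMSO could not be separated from that with TK. DOHH2 was higher with TK for 76 reversed, 271 absent, 182 smaller and 191 larger genes, and lower for 90, 354, 176 and 174.

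**Figure D1:**
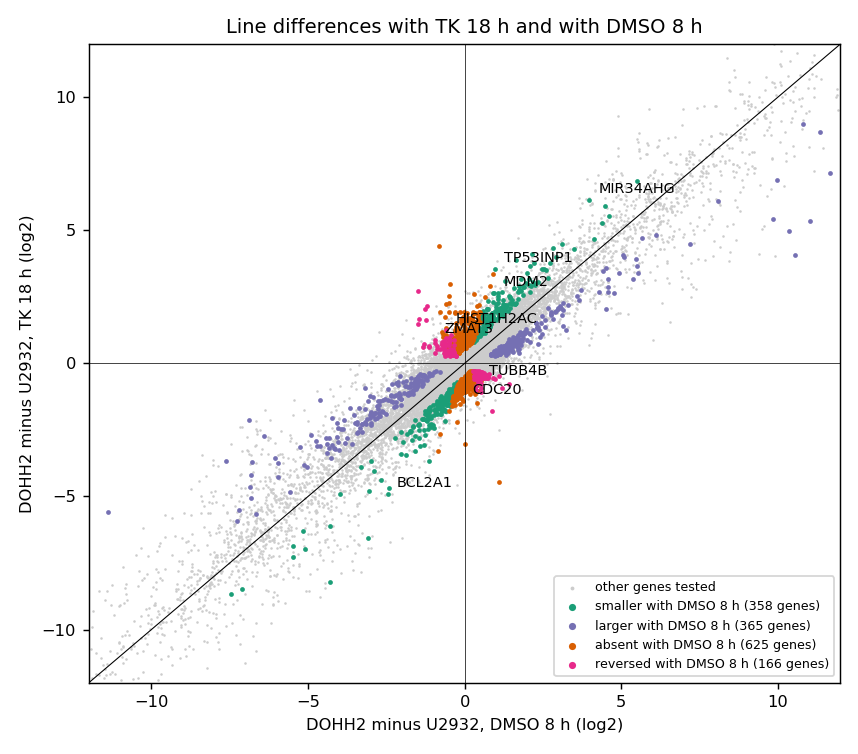
Each point is 1 of the 16478 genes tested. The horizontal axis is the log2 difference DOHH2 minus U2932 with DMSO at 8 h and the vertical axis the same difference with TK at 18 h, with the line of equality. Most genes lie along that line, and the coloured classes lie off it. ZMAT3 is in the upper left, at 0.86 with TK and -0.95 with DMSO, and 46 genes lie beyond the axes.

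The number of shifts depended on single libraries. It was 910 without replicate 2 of U2932 with TK and 3403 without replicate 1 of DOHH2 with TK, the library that stood apart, and 1953 of the 2044 genes passed with the same sign without it. Without 1 other library it also moved by over 1.5 times in 4 cases, to 1341 without replicate 2 of DOHH2 with TK, 991 without replicate 3 of DOHH2 with DMSO, and 1011 and 1180 without replicates 1 and 2 of U2932 with DMSO. A shift of more than 1.5-fold was called for 36 genes.

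Transcript length, taken as that of the longest annotated transcript of each gene, moved with the shift. Over 5 equal bins of transcript length, the median shift was -0.29 in the bin of the shortest (200 to 1680 nucleotides) and 0.38 in the bin of the longest (5464 nucleotides and more). The median level of short genes minus that of long genes was -0.492, -0.439 and -0.324 on the log2 scale in DOHH2 with TK and 0.349, 0.650 and 0.422 in U2932 with TK, so the groups did not overlap. It was 0.0132, -0.141 and 0.0700 in DOHH2 with DMSO and -0.490, -0.286 and -0.160 in U2932 with DMSO, again without overlap and with the lines in the other order. Median transcript length was 5790 nucleotides for reversed genes higher in DOHH2 with TK and 1564 for reversed genes lower there, and 5938 and 1770 for absent genes. With an offset per gene and library for transcript length, 925 shifts were called (5.63%), 577 positive and 348 negative, and 683 of the 2044 passed with the same sign. These offsets moved the median difference with DMSO over all genes to -0.143, against -0.033 without them. With them, 37 of the 166 reversed genes stayed reversed and 170 of the 625 absent genes stayed absent. Of the 358 smaller genes 102 kept their class, and of the 365 larger genes 117. Of the 242 line differences with TK of named genes, 225 passed with them, 15 did not and 2 turned sign. The part of transcript length in single shifts was not tested, and whether a shift passed with the offsets is given below.

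**Figure D2:**
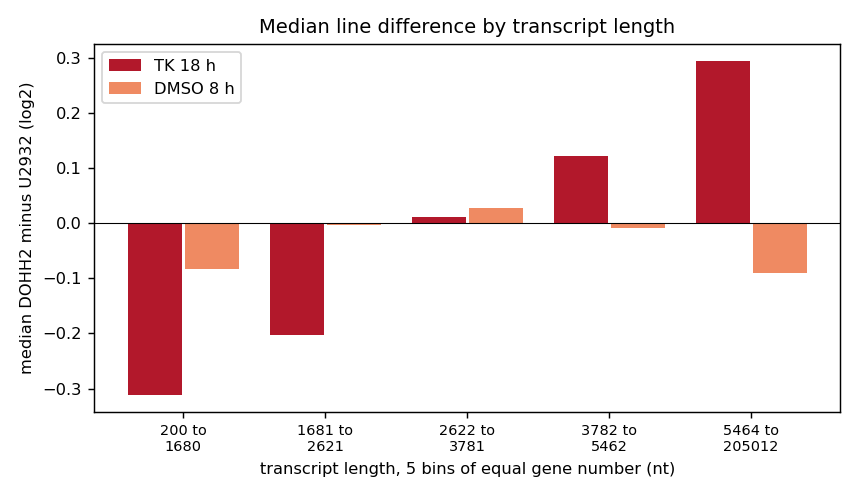
Bars give the median log2 difference DOHH2 minus U2932 over the genes of each of 5 equal bins of transcript length, in nucleotides, with TK at 18 h and with DMSO at 8 h. With TK the bars go up with length, with -0.31 in the shortest bin and 0.30 in the longest, and with DMSO they stay between -0.09 and 0.03.

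Most histone genes were higher in DOHH2 with TK, and few with DMSO. Of 11 histone genes tested, 8 were higher in DOHH2 with TK and none lower, with a median difference of 1.21, while with DMSO 1 was higher and 3 lower, with a median of -0.033. Without the library that stood apart, 6 were higher and 1 lower with TK, and the median with TK was 0.608. The shift was positive in 6 of 11 and negative in none, with and without length offsets, and in 5 and none without that library. The medians over all genes were -0.0032 with TK and -0.033 with DMSO. Of all genes, 34.2% were higher and 34.9% lower with TK, 33.0% and 34.9% with DMSO, and 5.70% had a positive shift. Counts of histone genes can miss reads shared with near-identical copies, and only the polyadenylated share of histone transcripts is captured.

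HIST1H2AC (ENSG00000180573.9, chr6:26124145-26139116 in GRCh38), a histone H2A gene, was reversed with DMSO. It had 6.28, 8.47 and 8.79 CPM in DOHH2 with TK, against 3.01, 4.08 and 2.79 CPM in U2932 with TK, and 3.61, 4.25 and 4.16 CPM in DOHH2 with DMSO, against 3.99, 7.79 and 6.25 CPM in U2932 with DMSO. The lines did not overlap with TK, with DOHH2 above U2932, and overlapped with DMSO. The log2 difference was 1.25 ± 0.24 with TK and -0.58 ± 0.23 with DMSO (fitted value ± SE), and the shift was 1.84 (adjusted p = 0.00455, edgeR), which passed in 12 of the 12 fits that each left out 1 library. The H2B gene HIST2H2BE (ENSG00000184678.10) had 7.01, 3.49 and 3.97 CPM in DOHH2 with TK, against 1.75, 1.17 and 1.35 CPM in U2932 with TK. Its values with DMSO overlapped, at 1.17, 1.14 and 2.16 CPM in DOHH2 and 1.81, 2.28 and 2.76 CPM in U2932, and the difference was absent there (shift 2.38, adjusted p = 0.0039). Its highest value was in the library that stood apart, without which the shift was 2.01. HIST1H2BC, another H2B gene, was also absent with DMSO, with differences of 1.93 with TK and -0.03 with DMSO, and HIST1H2BJ was smaller there, with 2.33 and 0.73. HIST1H2BK did not differ with TK (-0.19) and was lower in DOHH2 with DMSO (-1.40), a shift that passed in 5 of the 12 fits that each left out 1 library and not without the one that stood apart. At DMSO 18 h, measured in 2 libraries of DOHH2 and 1 of U2932, the line differences of these 5 genes ran from -1.08 (HIST1H2BK) to 0.59 (HIST1H2BJ).

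For 3 H2B genes picked with their shift known, the 200 bases upstream of the RefSeq starts (GRCh38.p14) are shown, on the gene's strand. Other H2B genes tested are not shown. Capitals mark the octamer ATTTGCAT, the CCAAT box CCAAT and the TATA box TATAAA on either strand. HIST1H2BC lies head to head with HIST1H2AC, so its window is most of the stretch between their starts.
HIST2H2BE, chr1:149886683-149886882, minus strand: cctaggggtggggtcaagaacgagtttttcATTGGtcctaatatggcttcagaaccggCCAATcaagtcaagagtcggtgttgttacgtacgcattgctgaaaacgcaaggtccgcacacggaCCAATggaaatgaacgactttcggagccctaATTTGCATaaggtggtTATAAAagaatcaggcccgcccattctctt
HIST1H2BJ, chr6:27132796-27132995, minus strand: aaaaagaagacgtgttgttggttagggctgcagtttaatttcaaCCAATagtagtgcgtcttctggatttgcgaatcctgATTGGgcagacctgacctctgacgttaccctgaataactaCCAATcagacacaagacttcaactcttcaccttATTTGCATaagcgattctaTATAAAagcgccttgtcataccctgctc
HIST1H2BC, chr6:26123927-26124126, minus strand: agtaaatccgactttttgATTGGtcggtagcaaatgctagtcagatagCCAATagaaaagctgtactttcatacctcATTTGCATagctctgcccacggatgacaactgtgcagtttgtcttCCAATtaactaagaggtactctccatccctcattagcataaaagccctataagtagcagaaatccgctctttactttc
Each of the 3 windows held 1 octamer and 3 CCAAT boxes. Of the 10 histone genes tested that had a RefSeq window, 5 held the octamer (HIST1H2AC, HIST1H2BC, HIST1H2BJ, HIST1H2BK and HIST2H2BE) and 9 held a CCAAT box, counted over all starts of a gene. Of all 35097 single windows of the same length, 1.3% and 28.0% held them, which is not like for like. The fitted shift was positive in the 5 genes with the octamer and in all 11 histone genes tested, so its sign did not set those 5 apart. HIST1H2AC and HIST1H2BC may share 1 octamer between their starts. A match is a description of the letters only.

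Targets of p53 were mostly higher in DOHH2 in both comparisons, and by more with TK. Of 29 tested, 23 were higher and 3 lower with TK, with a median difference of 1.19, and 19 were higher and 7 lower with DMSO, with a median of 0.82. The shift was positive in 10 and negative in none, and positive in 11 with length offsets. Among all genes, 34.2% were higher and 34.9% lower with TK, 33.0% and 34.9% with DMSO, and 5.70% had a positive shift. By class, 2 were reversed with DMSO, 2 absent, 3 smaller and 2 larger, and PPM1D, the phosphatase that dampens the p53 response, shifted without a line difference with TK (0.11, against -0.67 with DMSO).

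ZMAT3 (ENSG00000172667.10, chr3:179017223-179072279), an RNA-binding p53 target, had 42.7, 62.5 and 56 CPM in DOHH2 with TK, against 31.7, 28.2 and 28.7 CPM in U2932 with TK, and 33, 43.1 and 33.8 CPM in DOHH2 with DMSO, against 68.8, 81.1 and 62 CPM in U2932 with DMSO. The lines changed order without overlap in either comparison, and the level in U2932 was lower with TK than with DMSO in every library. Its differences were 0.86 ± 0.21 and -0.95 ± 0.21, with a shift of 1.81 (adjusted p = 0.0023). BTG2, an antiproliferative cofactor of mRNA decay, was the second reversed target, with differences of 0.46 with TK and -0.54 with DMSO (shift 1.0, adjusted p = 0.0135). Its difference with TK did not pass without the library that stood apart or without replicate 1 of U2932 with TK.

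Among the feedback genes, MDM2 (ENSG00000135679.22, chr12:68808176-68850686), the ubiquitin ligase of p53, had 383, 449 and 482 CPM in DOHH2 with TK, against 66.1, 78.9 and 65.4 CPM in U2932 with TK, and 191, 181 and 189 CPM in DOHH2 with DMSO, against 99, 94.7 and 96 CPM in U2932 with DMSO. The difference was the same in sign and smaller with DMSO, 2.64 ± 0.13 with TK and 0.95 ± 0.13 with DMSO (shift 1.69, adjusted p = 0.000145). DOHH2 was higher with TK than with DMSO in every library and U2932 lower. TP53INP1, a p53-induced gene of autophagy and cell death, had 62.3, 105 and 104 CPM in DOHH2 with TK, against 7.88, 7.3 and 8.02 CPM in U2932 with TK, and 29, 45.2 and 40.7 CPM in DOHH2 with DMSO, against 18.2, 22.6 and 17.5 CPM in U2932 with DMSO. Its shift of 2.57 (adjusted p = 0.00149) was the largest called in the list. MIR34AHG, the host transcript of the microRNA miR-34a and not on the list, had 24.7, 31.5 and 34.5 CPM in DOHH2 with TK, against 0.298, 0.257 and 0.665 CPM in U2932 with TK, with differences of 6.14 and 3.98 with DMSO. SESN1, a stress-induced inhibitor of mTORC1 signalling, was smaller with DMSO (1.78 and 0.56), and its relative SESN2 absent there (1.11 and 0.17), with a shift of 0.95, or 0.61 without the library that stood apart.

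The death and arrest genes of the list differed in the sign of their line difference. The BH3-only killer BBC3 was 1.44 with TK and 0.39, not called, with DMSO, and its shift passed in 3 of the 12 fits that each left out 1 library, not in the one without the library that stood apart. PMAIP1, another BH3-only killer, was lower in DOHH2, with -2.04 with TK and -2.79 with DMSO. RRM2B, a ribonucleotide reductase subunit for DNA repair, was likewise lower in DOHH2 and larger in size with DMSO (-1.41 and -2.69). CDKN1A, the inhibitor of cyclin-dependent kinases, averaged 504 ± 163 CPM in DOHH2 with TK and 25.9 ± 3.03 CPM in U2932 with TK (SD, n = 3 each). Its differences of 4.28 with TK and 3.38 with DMSO could not be separated (shift 0.91, adjusted p = 0.067), although the shift passed with length offsets (adjusted p = 0.0279). The gene EDA2R, a receptor of the tumour necrosis factor family, had no count in U2932 with DMSO and was at least 144-fold higher in DOHH2 there, taking 3 counts per library as the floor.

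A window upstream of a start inside MDM2, the start described as p53-responsive, is shown. It was picked because it holds a pair of p53 half-sites, so the pair was fixed by that choice. Capitals mark the pair, each half-site with at most 1 mismatch and at most 13 bases between them, and the CCAAT box on either strand.
MDM2, chr12:68808817-68809016, plus strand: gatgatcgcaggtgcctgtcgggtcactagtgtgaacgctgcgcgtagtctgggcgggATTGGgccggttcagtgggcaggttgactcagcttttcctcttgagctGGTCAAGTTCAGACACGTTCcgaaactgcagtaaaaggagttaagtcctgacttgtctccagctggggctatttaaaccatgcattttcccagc
Of the 24 tested p53 targets with a RefSeq window, counted over all their starts, MDM2 was the one with such a pair in the 200 bases. The share over single windows was 1.26%, which is not like for like. The windows do not reach the introns in which other sites can lie.

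**Figure D3:**
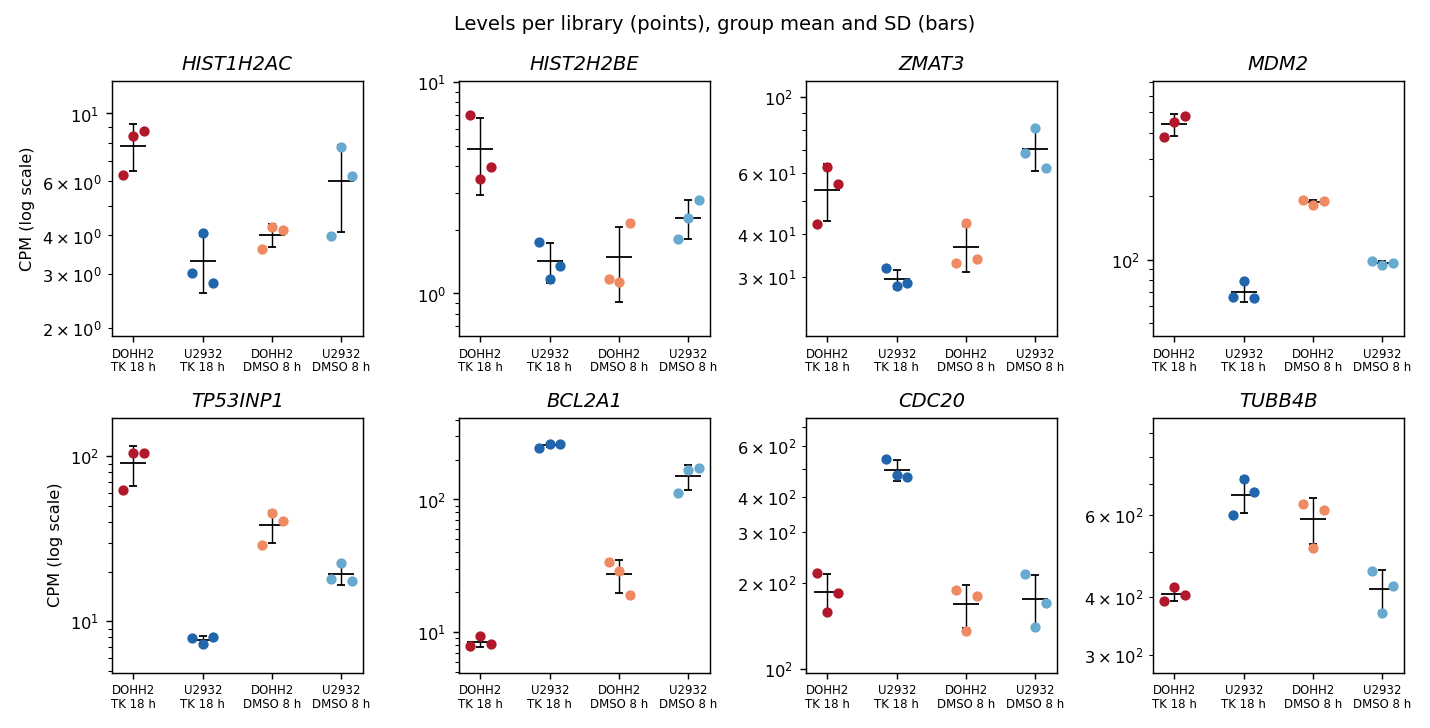
Points are single libraries, on a log axis of CPM, and bars give the mean and SD of the 3 libraries of DOHH2 with TK, U2932 with TK, DOHH2 with DMSO and U2932 with DMSO. The order of the lines changes between the comparisons for ZMAT3 and TUBB4B, and the gap is wider with TK for MDM2, TP53INP1 and BCL2A1. For CDC20 the lines are apart with TK and overlap with DMSO.

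Mitotic genes were lower in DOHH2 with TK. Of 30 tested, 22 were lower and 2 higher with TK, with a median of -0.77, against 12 lower and 3 higher with DMSO, with a median of -0.32. The shift was negative in 9 and positive in none, and in 6 and none with length offsets. Among all genes, 34.9% were lower and 34.2% higher with TK, 34.9% and 33.0% with DMSO, and 6.71% had a negative shift. Of the 9, 5 were absent with DMSO, 3 smaller, and 1 did not differ with TK.

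CDC20 (ENSG00000117399.13, chr1:43358955-43363203), the activator of the anaphase-promoting complex, had 217, 158 and 184 CPM in DOHH2 with TK, against 541, 475 and 469 CPM in U2932 with TK. With DMSO it had 189.6, 136 and 179.5 CPM in DOHH2 and 214, 140.0 and 171 CPM in U2932, and these overlapped. U2932 with TK stood above the other 3 groups, and the shift was -1.35 (adjusted p = 0.00769). The B-type cyclin genes, whose products drive entry into mitosis, were also highest in U2932 with TK. CCNB1 had 141, 143 and 165 CPM in DOHH2 with TK, against 403, 368 and 367 CPM in U2932 with TK, and 150.2, 124 and 146 CPM in DOHH2 with DMSO, against 194, 144 and 159.6 CPM in U2932 with DMSO (shift -1.10, adjusted p = 0.00617). CCNB2 averaged 84.8 CPM in DOHH2 with TK and 211 CPM in U2932 with TK (shift -1.19). AURKB, a kinase of the chromosomal passenger complex, and BIRC5, the survivin subunit of the same complex, were absent with DMSO too, with differences with TK of -0.72 and -1.12. The kinases PLK1 (-1.58 with TK, -0.56 with DMSO) and AURKA (-1.53 and -0.82) and the securin gene PTTG1 (-2.52 and -1.31) were smaller with DMSO. UBE2C, which hands ubiquitin to the anaphase-promoting complex, was -0.2, not called, with TK and 0.71 with DMSO. Of the 12 fits that each left out 1 library, AURKA passed in 3, UBE2C in 5 and AURKB in 7. AURKA, AURKB, PTTG1 and UBE2C did not pass with length offsets. Outside the list, the related ubiquitin genes UBE2S and ANAPC11, the latter a subunit gene of the complex, had -1.15 and -1.15 with TK, against 0.18 and 0.34 with DMSO. Both were picked from the absent class by the size of their shift, so that state was fixed by the choice.

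The 200 bases upstream of the RefSeq starts of CDC20, CCNB1 and CCNB2, 3 of the 5 mitotic genes whose difference was absent with DMSO, are shown for the cell cycle elements known from mitotic promoters, with capitals for the CCAAT box and the cell cycle homology element TTTGAA on either strand.
CDC20, chr1:43358781-43358980, plus strand: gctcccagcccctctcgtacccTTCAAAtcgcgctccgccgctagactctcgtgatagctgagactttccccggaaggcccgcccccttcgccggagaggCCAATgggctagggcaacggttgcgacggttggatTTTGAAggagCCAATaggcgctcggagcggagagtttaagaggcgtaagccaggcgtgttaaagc
CCNB1, chr5:69166950-69167149, plus strand: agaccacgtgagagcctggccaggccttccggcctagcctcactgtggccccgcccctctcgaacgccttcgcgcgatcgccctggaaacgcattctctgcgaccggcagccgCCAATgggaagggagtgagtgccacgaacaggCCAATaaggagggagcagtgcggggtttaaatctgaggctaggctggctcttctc
CCNB2, chr15:59104946-59105145, plus strand: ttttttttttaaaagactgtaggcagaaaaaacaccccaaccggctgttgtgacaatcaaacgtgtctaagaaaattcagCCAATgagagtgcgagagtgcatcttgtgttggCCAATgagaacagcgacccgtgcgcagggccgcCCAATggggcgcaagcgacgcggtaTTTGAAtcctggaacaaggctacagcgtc
Of the 25 mitotic genes tested that had a RefSeq window, 22 held a CCAAT box and 14 held TTTGAA, counted over all starts of a gene. Of all single windows, 28.0% and 10.3% held them, which is not like for like. CCNB1 had no TTTGAA in this window, which says nothing beyond these letters.

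The shifts called for tubulin genes were negative. Of 11 tested, 7 were lower and none higher with TK, with a median of -0.63, against 3 lower and 4 higher with DMSO, with a median of 0.35. Of all genes, 34.9% were lower and 34.2% higher with TK, against 34.9% and 33.0% with DMSO. In either direction, 69.2% of all genes differed with TK and 67.8% with DMSO. The shift of the tubulins was negative in 4, against 6.71% of all genes, or in 2 with length offsets, and not called in 7. It was negative in 7 without the library that stood apart, in 1 without replicate 2 of U2932 with TK and in 2 without replicate 2 of U2932 with DMSO. TUBB4B, a beta-tubulin, had 392, 419.7 and 403 CPM in DOHH2 with TK, against 601, 719 and 672 CPM in U2932 with TK, and 634, 511 and 616 CPM in DOHH2 with DMSO, against 453, 369 and 422 CPM in U2932 with DMSO. The lines changed order without overlap, and the shift was -1.21 (adjusted p = 0.0076). The alpha-tubulin TUBA4A was absent with DMSO (-0.54 and 0.35), and TUBA1B and TUBA1C differed with DMSO only at 0.55 and 0.47, against -0.27 and -0.33, not called, with TK. The shift of TUBA1B passed in 3 of the 12 fits that each left out 1 library. Reads shared between tubulin copies are uncertain.

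**Figure D4:**
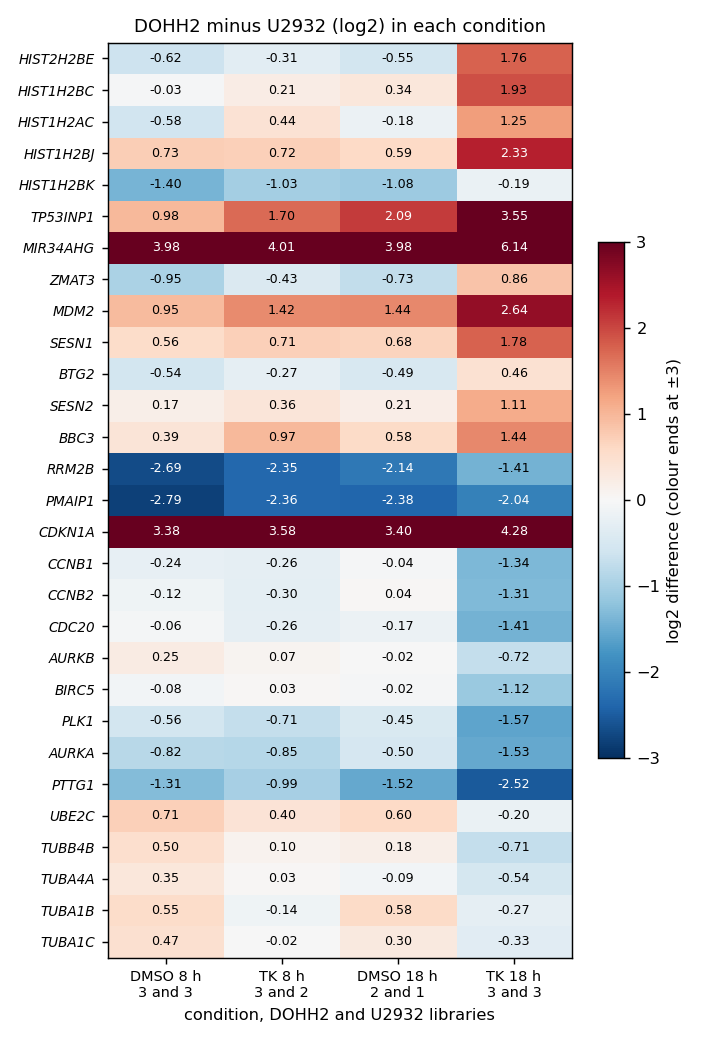
Cells give the fitted log2 difference DOHH2 minus U2932 for histone genes, p53 targets with MIR34AHG, mitotic genes and tubulins with DMSO at 8 h, TK at 8 h, DMSO at 18 h (2 libraries of DOHH2, 1 of U2932) and TK at 18 h. The column of TK at 18 h is the one in which ZMAT3 and BTG2 are positive and CCNB1, CDC20 and TUBB4B are negative by 0.71 or more.

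The conditions in between were described for the classes as a whole, with few libraries. Of the 271 absent genes higher in DOHH2 with TK, the line difference with DMSO at 18 h had that sign in 257, and of the 354 lower ones in 327. With TK at 8 h the sign was shared by 145 of 271 and 174 of 354. Among reversed genes, DMSO at 18 h had the sign of TK in 56 of 76 and 30 of 90, and TK at 8 h in 6 of 76 and 2 of 90. With the DMSO libraries of 18 h in place of those of 8 h, the shift was called for 4 genes, with 1017 at an unadjusted p under 0.05. They included PIGR, INSR and IGKV3-20, named after their values were seen, none of which belongs to the 2044. The comparison with a single U2932 library leaves little precision.

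Other reversed genes, chosen by the size of the shift, had no list in common. Higher in DOHH2 with TK and lower with DMSO were USP37, a deubiquitinase of cyclin A (0.66 and -1.14), UHMK1, a kinase of the CDK inhibitor p27 (0.63 and -1.13), PDP1, the phosphatase that activates pyruvate dehydrogenase (0.67 and -0.88), FAM117B (0.60 and -1.34) and NFAT5, the transcription factor of osmotic stress (0.81 and -0.71). NFAT5 passed in 5 of the 12 fits that each left out 1 library and did not pass with length offsets. With 1 library left out, the difference with TK itself passed in 7 (UHMK1), 8 (NFAT5), 9 (PDP1), 11 (USP37) and 11 (FAM117B) of 12 fits. With the replicate block that of UHMK1 did not pass (adjusted p = 0.0532, edgeR). Their longest annotated transcripts were 4358 nucleotides (PDP1) to 14219 nucleotides (NFAT5) long.

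Lower in DOHH2 with TK and higher with DMSO was the polyubiquitin gene UBB, with 364, 397 and 516 CPM in DOHH2 with TK, against 921, 880.0 and 891 CPM in U2932 with TK, and 550.1, 592 and 592 CPM in DOHH2 with DMSO, against 377, 386 and 448 CPM in U2932 with DMSO. Its shift was -1.59 (adjusted p = 0.00125). The set also held NDUFAF3, an assembly factor of respiratory complex I (-1.0 with TK, 0.37 with DMSO), ROMO1 of the mitochondrial inner membrane (-0.77 and 0.53), the ribosomal protein gene RPS28 (-0.56 and 0.76), CENPW of the inner kinetochore (-0.59 and 0.96), ZNF593 (-0.47 and 1.08), ADAP1 (-0.91 and 0.53) and C12orf57 (-0.54 and 0.92). The differences with TK of CENPW, C12orf57, RPS28 and ZNF593 did not pass without the library that stood apart, and passed in 8, 9, 10 and 11 of the 12 fits in the same order. The shifts of CENPW, C12orf57, RPS28 and ROMO1 did not pass with length offsets. The difference with TK of ZNF593 turned sign with length offsets, and that of CENPW with length and GC offsets, so these were not reversed there. UBB and RPS28 have processed copies, so reads shared with them are uncertain. The longest annotated transcripts of these 8 genes were 498 to 2363 nucleotides long.

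Among absent differences, the zinc exporter gene SLC30A1 had 18.4, 29.8 and 24.8 CPM in DOHH2 with TK, against 7.51, 5.53 and 6.78 CPM in U2932 with TK, and 20.3, 20.5 and 20.4 CPM in DOHH2 with DMSO, against 18.3, 16.8 and 13.3 CPM in U2932 with DMSO. The shift was 1.54 (adjusted p = 0.0052), and the line difference with DMSO at 18 h was 1.81, near the 1.88 with TK. SLC5A3, the myo-inositol transporter (1.70 with TK, 1.48 with DMSO at 18 h), PANK3, a kinase of coenzyme A synthesis (1.59 and 1.59), and RICTOR, a subunit of mTORC2 (1.93 and 1.61), had the same pattern of values. FGD4, an exchange factor for CDC42, was 2.19 with TK and 0.47 with DMSO. RICTOR passed in 3 and PGAP1, a remodeller of GPI anchors, in 6 of the 12 fits that each left out 1 library, and neither passed with length offsets. With the replicate block the shift of RICTOR did not pass (adjusted p = 0.0575, edgeR). Lower in DOHH2 with TK and absent with DMSO were LAMTOR4, a subunit of the lysosomal Ragulator (-1.53), TLCD1 (-1.49), the mitochondrial nuclease gene ENDOG (-0.96), DCXR (-1.0) and the plasminogen receptor gene PLGRKT (-1.79), of which PLGRKT did not pass with length offsets.

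Among NF-kB targets, the difference of BCL2A1 was smaller with DMSO. BCL2A1 (ENSG00000140379.7, chr15:79960889-79971446), an antiapoptotic BCL2 relative induced by NF-kB, had 7.85, 9.33 and 8.2 CPM in DOHH2 with TK, against 246, 262 and 262 CPM in U2932 with TK. With DMSO it had 33.9, 28.9 and 19.1 CPM in DOHH2 and 112, 166 and 172 CPM in U2932. The difference was -4.92 ± 0.26 with TK and -2.46 ± 0.23 with DMSO (shift -2.46, adjusted p = 0.000907), and with DMSO at 18 h it was -4.87, close to the value with TK. Of 18 NF-kB targets tested, 8 were higher and 6 lower with TK, and 11 higher and 5 lower with DMSO, with medians of 0.27 and 0.94. Over all genes, 34.2% were higher and 34.9% lower with TK, and 33.0% and 34.9% with DMSO. The median of the list with DMSO at 18 h was -0.31. Its shift was negative in 4 members and positive in none, against 6.71% and 5.70% of all genes. Without the library that stood apart it was negative in 8, the median with TK was 0.0801, and with DESeq2 the shift was negative in 7. The 4 included the cytokine subunit EBI3, with 16.3, 12.9 and 8.86 CPM in DOHH2 with TK, against 0.662, 1.54 and 1.4 CPM in U2932 with TK, and a larger difference with DMSO (3.38 and 5.54). The chemokine gene CCL3 was larger with DMSO too (1.27 and 3.25), and CCL4 did not differ with TK (-0.46) and was higher in DOHH2 with DMSO (2.64). With DMSO at 18 h the differences were 3.36 for EBI3, 1.01 for CCL3 and -0.25 for CCL4. CCL3 and CCL4 have near-identical copies, so their counts are uncertain. TNF had no count in DOHH2 with TK and was at least 102-fold lower than in U2932 with TK.

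Interferon-stimulated genes separated the lines most, and in both comparisons. Of 29 tested, 28 were higher and 1 lower in DOHH2 with TK as with DMSO, with medians of 4.23 and 4.48. The share of all genes that was higher was 34.2% with TK and 33.0% with DMSO. STAT2, a transcription factor of the pathway, shifted upward, with 1.52 with TK and 0.39 with DMSO (shift 1.12, adjusted p = 0.00115). It had 123, 102 and 105 CPM in DOHH2 with TK, against 35.7, 41.3 and 38.7 CPM in U2932 with TK, and 64.3, 63.9 and 56.8 CPM in DOHH2 with DMSO, against 47.6, 49.4 and 43.9 CPM in U2932 with DMSO. Short effector genes shifted downward: IFI6 (3.98 and 5.10), IFI27 (3.94 and 5.46), the antiviral membrane protein gene IFITM1 (4.72 and 5.66) and the tetherin gene BST2 (2.05 and 3.0) were larger with DMSO. The shift of IFI6 passed in 3 and that of IFITM1 in 8 of the 12 fits that each left out 1 library. None of these 4 passed with length offsets, under which 4 members of the list had a positive shift and none a negative one, so the direction for the list depended on that setting.

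B cell surface genes shifted mostly downward from DMSO at 8 h. Their median difference with DMSO at 18 h, with 1 library of U2932, was -0.29, near the -0.25 with TK. Of 26 tested, 10 were higher and 12 lower in DOHH2 with TK, against 34.2% and 34.9% of all genes. With DMSO, 13 were higher and 10 lower, against 33.0% and 34.9%, and the medians were -0.25 with TK and 0.42 with DMSO. The shift was negative in 8 and positive in 1, against 6.71% and 5.70% of all genes, or in 5 and 1 without replicate 1 of U2932 with DMSO. CD40, the costimulatory receptor, had 73.8, 49.8 and 44.7 CPM in DOHH2 with TK, against 73, 71.3 and 72.3 CPM in U2932 with TK, and 114, 128 and 87.8 CPM in DOHH2 with DMSO, against 42.6, 56.8 and 58.9 CPM in U2932 with DMSO. The line difference was -0.36, not called, with TK and 1.06 with DMSO (shift -1.42, adjusted p = 0.00788), and it was -0.81 with DMSO at 18 h. CD27, a receptor of the same family, was -0.13, not called, with TK and 0.93 with DMSO, and its ligand CD70 was higher in DOHH2 with 2.09 and 3.08. The differences of CD22 (-2.29 and -1.46), CD79B of the antigen receptor (-2.54 and -1.74) and the ligand CD86 (-2.64 and -1.84) were smaller, and CD79A absent (-0.5 and 0.19). MME, the CD10 peptidase, was the member with a positive shift, 0.36, not called, with TK and -1.08 with DMSO. Of the 12 fits that each left out 1 library, the shift of CD86 passed in 7 and that of CD79A in 8. With length offsets 4 members had a negative shift and MME a positive one.

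Fewer MYC targets were higher in DOHH2 with TK than with DMSO. Of 25 tested, 8 were higher and 7 lower with TK, near the 34.2% and 34.9% of all genes. With DMSO, 15 were higher and 2 lower, against 33.0% and 34.9% of all genes. The medians were -0.0052 with TK and 0.44 with DMSO. Beside 6.71% and 5.70% of all genes, the shift was negative in 6 and positive in none. It was negative in 9 and positive in 1 without the library that stood apart and negative in 10 with DESeq2. It was negative in 2 without replicate 2 of U2932 with TK or without replicate 3 of DOHH2 with DMSO, and in 3 without replicate 1 of U2932 with DMSO. ODC1, the first enzyme of polyamine synthesis, was reversed (-0.39 with TK, 0.35 with DMSO, shift -0.74, adjusted p = 0.00572). The ribosome assembly genes NOP16 (0.5 and 1.18) and BOP1 (0.63 and 1.5) and the spermidine synthase gene SRM (0.62 and 1.31) were larger with DMSO. Of the 6, ODC1 alone passed with length offsets.

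Genes higher in DOHH2 by more with TK included IKZF2, the zinc finger factor Helios (4.09 with TK, 2.17 with DMSO), the RNA-binding gene MEX3B (2.51 and 1.07) and the scaffold gene AHNAK (4.34 and 2.83), the last not past the threshold with length offsets. Genes lower by more included A4GALT, the synthase of the Gb3 glycolipid (-7.26 and -5.48), and LOXL2, a lysyl oxidase (-8.49 and -7.10). PIR and CCDC22 had no count in DOHH2 with TK and were at least 299.8-fold and 329-fold lower there than in U2932 with TK. With DMSO they were at 0.0474 and 0.044 CPM in DOHH2, under the floor of 0.0818 CPM that 3 counts per library give, so these calls rest on few counts, and the shifts passed in 2 (PIR) and 6 (CCDC22) of the 12 fits that each left out 1 library, that of PIR not without the one that stood apart.

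Larger with DMSO, and thus closer between the lines with TK, were MCL1, the antiapoptotic BCL2 relative with -2.58 with TK and -3.40 with DMSO (shift 0.82, adjusted p = 0.0101), and the B cell repressor BACH2 (-1.33 and -2.55), which did not pass with length offsets. PARD6G, a cell polarity gene, was -1.26 and -2.94, and the kinase gene MAP3K9 -2.44 and -4.05. The chemokine gene CXCL9 averaged 102 CPM in DOHH2 with TK and 0.23 CPM in U2932 with TK, against 133 CPM in DOHH2 with DMSO and 0.0483 CPM in U2932 with DMSO, and its shift passed in 7 of the 12 fits that each left out 1 library. GYPC had no count in U2932 with DMSO, where DOHH2 was at least 574-fold higher, and its shift passed in 5 of those fits.

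The line differences of largest size with TK were present with DMSO as well. Higher in DOHH2 without overlap were COL27A1, a fibrillar collagen gene (284 CPM in DOHH2 with TK and 0.127 CPM in U2932 with TK), the insulin receptor gene INSR (129.8 and 0.07 CPM in the same order), PREX1, an exchange factor for Rac (225 and 0.155 CPM), and MAT1A (134 and 0.0743 CPM). Lower were the cadherin gene CDH2 (0.125 CPM in DOHH2 with TK and 768 CPM in U2932 with TK), IGHM, the constant region of immunoglobulin M (0.513 and 4274 CPM), and RGS13 (0.0125 and 217 CPM). ME1, the malic enzyme gene, had no count in DOHH2 in either comparison and was at least 515-fold lower with TK and at least 500.5-fold lower with DMSO. Of the 24 genes of this choice, PIR and CCDC22 had a shift.

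**Figure D5:**
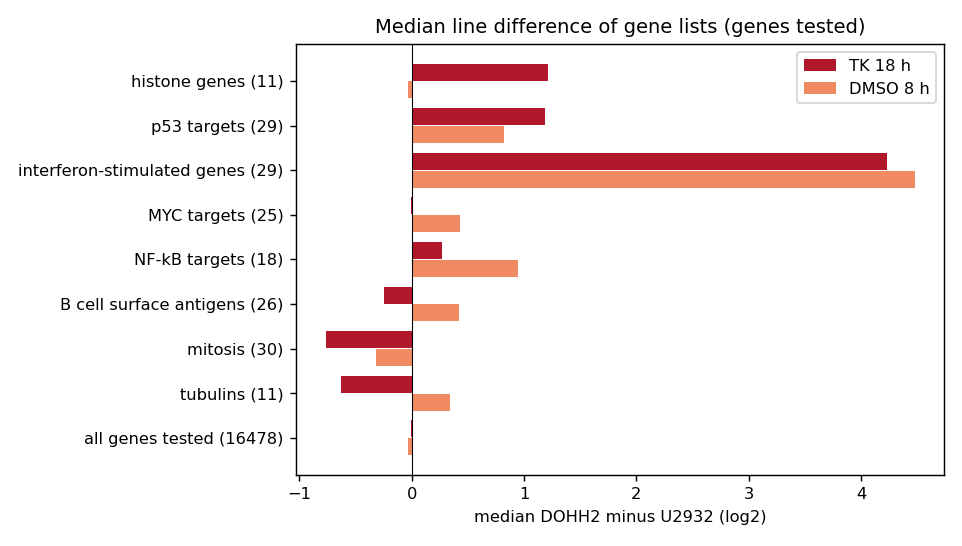
Bars give the median log2 difference DOHH2 minus U2932 over the tested genes of each list (their number in brackets), with TK at 18 h above and with DMSO at 8 h below. Histone genes are at 1.21 with TK and -0.033 with DMSO, tubulins at -0.63 and 0.35, and interferon-stimulated genes at 4.23 and 4.48, beside -0.0032 and -0.033 over all genes.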

How the data were processed

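RNA-seq counts per gene of 20 libraries, made from polyadenylated RNA per the labels, were used as the authors deposited them: whole-number counts for 58288 genes and 5 summary rows, which were left out. Per the submitters' processing notes, reads were aligned with STAR to GRCh38.p10, counted with HTSeq and tested with edgeR. Sources used here give no annotation release, strand setting or tool version, so sense and antisense reads at one place cannot be told apart. Symbols were those deposited with the counts. Coordinates, transcript length and GC content came from GENCODE v29 (GRCh38), with an entry for 16433 of the genes tested, and promoter sequences from RefSeq (GRCh38.p14). Length and GC content were those of the longest annotated transcript of a gene, which need not be the one expressed.

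Samples were grouped by the labels' line, compound and time, 8 groups in all. Genes with at least 0.288 CPM (10 counts in the median library) in at least 3 libraries were kept, 16478 in all. They were fitted with edgeR 4.0.16 in R 4.3.3 (TMM, quasi-likelihood F test with robust dispersion, 1 coefficient per group over all 20 libraries), with p-values adjusted over all genes by the Benjamini-Hochberg method at 0.05. Log2 differences and their SE are from this fit. The contrasts were DOHH2 minus U2932 with TK at 18 h, the same with DMSO at 8 h, and the difference of the 2. Counts were also drawn from 1 mean per gene for all groups, with the depth of each library and the fitted spread of each gene. Changes were given to DOHH2 with TK at 18 h alone. In the last contrast the fit called 44.1% of 93 genes given a 2-fold and 79.4% of 107 given a 4-fold change, with 4 of 16278 other genes called. These counts had no other line difference, no length trend and no library that stood apart, so the rates do not carry over to the shifts above.

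Named were, with TK, up to 12 genes each way with no overlap, at least 20 CPM and the largest difference, up to 8 each way per class with at least 5 CPM by size of the shift, and from each of 30 lists up to 4 members with TK and every member with a shift, else the one with the smallest p. A few genes that these rules take are not reported here by name, but counts over all genes and lists include them. MIR34AHG and other genes of the classes are named by the second rule. The members, lists and rules were chosen with earlier results of these data known. Same-numbered libraries of the 2 lines deviated together with DMSO at 8 h (correlations of deviations 0.336, 0.187 and 0.394 over 9862 genes). With TK at 18 h they did not (-0.165, -0.0434 and -0.144). Between TK at 18 h and DMSO at 8 h the correlations were 0.46, 0.0972 and 0.204 in U2932 and -0.197, -0.0727 and 0.0136 in DOHH2. These values do not settle whether replicate numbers pair the samples, and the fit with a replicate block is given below. The alternatives were scaling by RLE, other filters, DESeq2 1.42.0, fewer libraries in the fit, a replicate block, a test against 1.5-fold, DMSO libraries of both times and leaving out each of 12 libraries. After seeing the data, limma 3.58.1 voom with library quality weights, offsets for transcript length and GC content, and DMSO at 18 h were added.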

Additional observations from a re-analysis of the deposited data

Results flagged for a closer look

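The line difference with TK at 18 h differed from that with DMSO at 8 h for 2044 genes in the test of the difference itself (edgeR, adjusted p under 0.05), which is why the 146 named genes among them are given with their shift, the log2 difference DOHH2 minus U2932 with TK minus the same difference with DMSO. Compound and time both differ and cannot be told apart. Of the 146, 78 passed in all 12 fits that each left out 1 library, 79 with offsets for transcript length, and 61 in both. The fitted shifts of CCDC22, PIR, GYPC, ALDH7A1, FAM198B and CDKN2B, each with no count in 1 group, depend on the prior count and are no bounds.

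Genes reversed with DMSO had positive shifts for FAM117B 1.94, HIST1H2AC 1.84, ZMAT3 1.81, USP37 1.80, UHMK1 1.76, PDP1 1.55, NFAT5 1.52, STARD4 1.43, BTG2 1.0 and IGF1R 0.88. The negative shifts in this group were UBB -1.59, ZNF593 -1.56, CENPW -1.54, C12orf57 -1.47, ADAP1 -1.44, NDUFAF3 -1.38, RPS28 -1.32, ROMO1 -1.30, TUBB4B -1.21, VAV1 -0.82 and ODC1 -0.74.

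Genes whose difference was absent with DMSO had positive shifts for HIST2H2BE 2.38, HIST1H2BC 1.96, FGD4 1.72, EGR2 1.66, PGAP1 1.56, SLC30A1 1.54, SLC5A3 1.51, PANK3 1.47, YPEL2 1.47, RICTOR 1.46, EPM2AIP1 1.41, VLDLR 1.40, PIK3CG 1.14, BBC3 1.04, ELK4 0.96 and SESN2 0.95. The negative shifts in this group were TLCD1 -1.88, ANAPC11 -1.49, LAMTOR4 -1.38, CDC20 -1.35, UBE2S -1.33, DCXR -1.30, ENDOG -1.29, PLGRKT -1.29, BATF -1.26, CCNB2 -1.19, TK1 -1.17, CCNB1 -1.10, BIRC5 -1.05, TAP2 -0.97, AURKB -0.97, TUBA4A -0.88, HSPE1 -0.73, RFXANK -0.71, CD79A -0.70 and FKBP11 -0.64.

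Genes whose difference was smaller with DMSO had positive shifts for TP53INP1 2.57, MIR34AHG 2.16, IKZF2 1.93, MDM2 1.69, HIST1H2BJ 1.60, AHNAK 1.5, CAMKV 1.46, MEX3B 1.45, MST1 1.41, SESN1 1.22, STAT2 1.12, IRS1 0.95, FOSL2 0.86, PRDM1 0.83 and LIMD1 0.54. The negative shifts in this group were PIR -4.71, CCDC22 -4.36, BCL2A1 -2.46, SMIM3 -1.84, A4GALT -1.77, TNFRSF18 -1.77, IFI27L2 -1.44, LOXL2 -1.40, PTTG1 -1.21, ELL3 -1.21, SERPINA9 -1.16, PLK1 -1.01, CD22 -0.83, CD79B -0.80, CD86 -0.80, AURKA -0.71, PHGDH -0.66 and FDPS -0.57.

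Genes whose difference was larger with DMSO had positive shifts for CDKN2B 5.81, ALDH7A1 4.60, FAM198B 4.41, COL4A4 1.83, AC007191.1 1.77, USP53 1.69, PARD6G 1.68, NEO1 1.67, MAP3K9 1.61, RRM2B 1.28, BACH2 1.22, MYBL1 0.99, MCL1 0.82, PMAIP1 0.75, PIM1 0.70, ITPKB 0.70, FOXP1 0.68 and ELF2 0.61. The negative shifts in this group were GYPC -6.20, RAP2B -4.51, GIMAP8 -3.07, CXCL9 -2.66, COL1A1 -2.20, EBI3 -2.16, CCL3 -1.97, C16orf74 -1.97, IFI27 -1.52, MZB1 -1.14, IFI6 -1.11, PSMB10 -1.02, CD70 -0.99, BST2 -0.95, IFITM1 -0.93, BOP1 -0.87, PSMB8 -0.83, SSR4 -0.81, UNC93B1 -0.72, NOP16 -0.69 and SRM -0.68.

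Genes with no line difference called with TK had positive shifts for MME 1.44, CCNE2 1.22, HIST1H2BK 1.20, HMGCS1 1.08, SQLE 0.91, PPM1D 0.78 and POU2AF1 0.69. The negative shifts in this group were CCL4 -3.10, CD40 -1.42, CD27 -1.06, UBE2C -0.91, BID -0.85, TUBA1B -0.82, TUBA1C -0.81, TPI1 -0.76, TYK2 -0.73 and MRTO4 -0.61.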

How the results depend on the processing

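Compound and time differ together, replicates may be technical, the strand setting is not given, and the U2932 control at 18 h is 1 library, which limits what a shift can be set against. The counts of line differences with TK and with DMSO stayed within 1.5 times of 11397 and 11177, except that 7437 genes with DMSO passed the test against 1.5-fold. Against 2044 shifts, that test called 36, DMSO libraries of both times 181, voom with quality weights 6864, transcript length offsets 925, and DMSO at 18 h 4, and with 1 library left out the count was 910 to 3403. RLE scaling, the other filters, DESeq2 and the fit of 12 libraries gave 2075 to 2936. Reversed genes numbered 722 with voom, 90 with length offsets and 85 to 223 with 1 library left out. Absent ones numbered 1501, 269 and 263 to 928. Smaller ones numbered 1567, 159 and 126 to 611, and 578 with DESeq2. Larger ones numbered 1833, 189 and 161 to 654, and 565 with DESeq2. The cause of these changes was not tested.

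With the replicate block, 11420 genes differed with TK, 11209 with DMSO and 2088 shifted, 1909 of them among the 2044, and the block changed 2 calls of named line differences and 4 of named shifts. Those were the differences with TK of UHMK1 and STARD4 and the shifts of RICTOR, C16orf74, FAM198B and HSPE1, with adjusted p (edgeR) of 0.053 to 0.059. Of the 146 named shifts, 146 passed with DESeq2, 146 with RLE scaling, 144 with voom, 79 with length offsets, and 87 to 138 with 1 library left out. The sign turned for ZNF593 (difference with TK) 0.0278 and IGF1R (difference with TK) -0.0672 with length offsets, and for CENPW (difference with TK) 0.0503, CD79A (shift) 0.0163, IGF1R (difference with TK) -0.108, SRM (shift) 0.0776 and HSPE1 (difference with TK) 0.0329 with length and GC offsets. With DMSO at 18 h in place of 8 h the shift changed sign for AHNAK -1.06, A4GALT 0.261, TNFRSF18 0.421, GIMAP8 0.0467, CXCL9 0.705, COL1A1 0.817, EBI3 0.0137, CCL3 0.259, FAM198B -0.714, PRDM1 -0.0371, CD22 0.409, CD27 0.00463, CD40 0.446, CD86 0.256, VAV1 0.0349, MYBL1 -0.596, SERPINA9 0.49, BATF 0.239, IFI27 0.23, TAP2 0.0746, UNC93B1 0.0636, TYK2 0.178, HMGCS1 -0.272 and SQLE -0.00363. Depth limits the genes with a group under the floor of 3 counts per library.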

Other observations

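Growth factor and lipid genes shifted at a share near the 12.4% of all genes. Line differences were called for 69.2% of all genes with TK (34.2% higher, 34.9% lower) and 67.8% with DMSO (33.0% and 34.9%). Of 20 PI3K and FOXO genes tested, 15 were higher and 3 lower in DOHH2 with TK, against 10 higher and 5 lower with DMSO, with medians of 0.73 and 0.40 and 3 positive shifts, or 2 with the replicate block and 1 to 6 shifts, the last with 1 negative, with 1 library left out. IGF1R, the receptor of insulin-like growth factor, was reversed with DMSO (0.41 with TK, -0.46 with DMSO), its adaptor IRS1 was smaller (1.36 and 0.42) and the mTORC2 subunit RICTOR absent. None of these 3 shifts passed with length offsets, that of RICTOR did not pass with the replicate block (adjusted p = 0.0575, edgeR), and the difference of IGF1R with TK passed in 6 of the 12 fits that each left out 1 library, not in the one without replicate 1 of DOHH2 with TK. The sign of that difference turned with length offsets. Of 23 cholesterol genes, 5 were higher and 12 lower with TK and 3 higher and 15 lower with DMSO, with medians of -0.35 and -0.72, and the shift was positive in 3 and negative in 1, or in 5 and 2 without replicate 1 of DOHH2 with TK. STARD4, a sterol carrier, had 20, 41 and 33.5 CPM in DOHH2 with TK, against 24.1, 21.2 and 19.8 CPM in U2932 with TK, and 24.8, 23.6 and 23.3 CPM in DOHH2 with DMSO, against 49.8, 46.6 and 36.2 CPM in U2932 with DMSO. It was reversed (shift 1.43, adjusted p = 0.0109, edgeR), but the difference with TK passed in 7 of those fits and not with the replicate block (adjusted p = 0.0532). SQLE, the squalene epoxidase gene, was -0.16, not called, with TK and -1.06 with DMSO.

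Immune signalling genes were less alike. Antigen presentation genes of class I were higher in DOHH2 for 13 of 17 with TK and 12 of 17 with DMSO, against 34.2% and 33.0% of all genes. The shift was negative in 3, against 6.71% of all genes, or in 5 without replicate 1 of DOHH2 with TK. These were the immunoproteasome genes PSMB10 (0.31 and 1.33) and PSMB8 (0.86 and 1.69), neither past the threshold with length offsets, and the peptide transporter gene TAP2 (-0.65 with TK, 0.32, not called, with DMSO). VAV1, an exchange factor downstream of the B cell receptor, was reversed (-0.44 and 0.38, with a shift that passed in 7 of the 12 fits), and PIK3CG was absent with DMSO (1.58 and 0.43). The transcription factor gene BATF averaged 9.13 CPM in DOHH2 with TK and 22.9 CPM in U2932 with TK, with -1.33 with TK and -0.08, not called, with DMSO, and -1.57 with DMSO at 18 h. MZB1, a chaperone of antibody secretion, was larger with DMSO (2.0 and 3.14). Of 28 DNA replication genes, 3 were higher and 12 lower with TK, and 2 higher and 11 lower with DMSO. Over all genes, 69.2% differed with TK and 67.8% with DMSO. The 1 member with a shift, against 12.4% of all genes, was TK1, thymidine kinase, at -0.71 with TK and 0.46, not called, with DMSO. That shift passed in 3 of the 12 fits, while 3 members shifted downward without replicate 1 of DOHH2 with TK.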
